A study of Mus musculus with 2 samples.

Results

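The 37 genes described here encode proteins of fatty acid oxidation and ketogenesis: fatty acid binding, activation, the carnitine shuttle, mitochondrial and peroxisomal beta-oxidation, electron transfer, ketone body enzymes and the coactivator Ppargc1a. They were listed by symbol because colonocytes burn butyrate, without use of their values but with earlier results of these data known. They are 37 of the 22909 genes that could be named on the arrays. Of the 37, 35 had a signal well above background, each of them on both arrays, and 2 (Cd36 and Fabp1) had none. RNA came from colon of C57BL/6 mice, which the methods give as 8 weeks old, and was hybridized with Cy3 to 1 Agilent array for Villin-Cre and 1 for Villin-Cre; EP4flox/flox (EP4 cKO). Both genotypes carry Villin-Cre, which expresses Cre recombinase in epithelial cells of the intestine, so only the floxed Ptger4, the gene of the prostaglandin receptor EP4, is meant to differ and only in the epithelium. According to the labels, 3 pools of colon were combined for each array. There was therefore 1 value per genotype, no spread between mice, no test and no p-value, and every difference describes this pair of arrays.

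Colonocytes at the surface of the colon take their energy largely from butyrate, which bacteria make from fibre. Butyrate enters mitochondria, is activated to butyryl-CoA and is oxidized by the short-chain acyl-CoA dehydrogenase. Longer fatty acids are activated by acyl-CoA synthetases, carried into the matrix as acylcarnitines and shortened in repeated rounds of dehydrogenation, hydration, a further dehydrogenation and thiolysis. Electrons pass through the electron transfer flavoprotein to the respiratory chain, and the acetyl-CoA formed enters the citrate cycle or is turned into ketone bodies.

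The values are processed intensities of the scanner software, scaled to a trimmed mean of 2500 per array, and a gene is represented by its brightest probe. Signals have arbitrary units, so that each gene is compared with itself only. The log2 ratio is EP4 cKO over Villin-Cre. Its error is the error that the scanner software estimated for both spots, which was 0.20 to 0.30 for these genes (median 0.20) and does not include differences between mice. In bulk tissue, fewer cells of a type and less RNA per cell cannot be told apart.

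Most of these genes had similar signals in both genotypes. Their median log2 ratio was -0.09, beside -0.10 over the 14669 genes with a value. 1 gene was more than 2-fold higher in EP4 cKO, Acox2 (2.86% of the 35), beside a background of 4.86% of all genes with a value. 1 gene was more than 2-fold lower, Angptl4 (2.86%), beside a background of 7.87%. At 1.5-fold, 4 were higher (Acox2, Acadl, Fabp2 and Etfa; background 9.84%) and 3 were lower (Angptl4, Acot1 and Acads; background 18.6%). The other 28 (80.0%) lay within 1.5-fold, as did 71.6% of all genes. At 3-fold, Acox2 alone was higher (background 2.21%) and none was lower (background 3.63%). Below 0 were 22 of the 35 (62.9%), and 63.0% of the 12816 genes measured on both arrays. These shares lay near the background or under it. Acads was within 1.5-fold under 4 of the 8 alternative ways of processing, and Angptl4 and Acot1 each under 1 (normexp with quantile normalization). Each of these genes had 1 probe, well above background on both arrays. The filter on both arrays, no filter and the mean over probes could therefore not change their ratios.

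**Figure D1:**
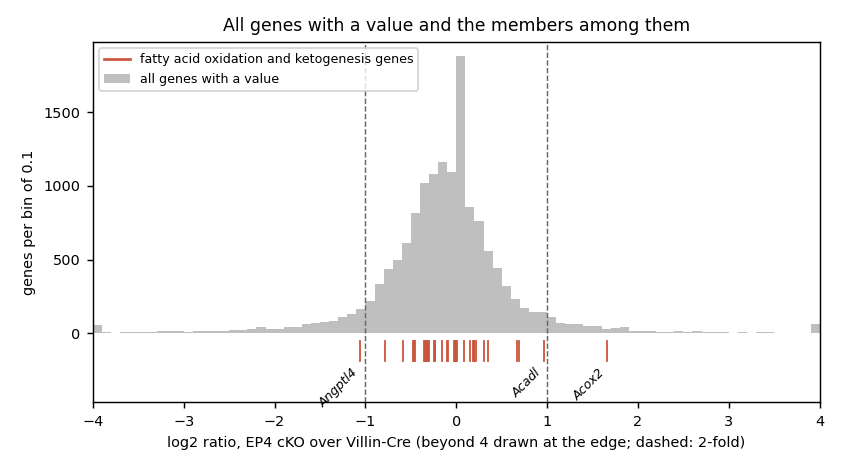
Histogram of the log2 ratio, EP4 cKO over Villin-Cre, of the 14669 genes with a value, in bins of 0.1, with red ticks for the 35 fatty acid oxidation and ketogenesis genes. The ticks lie in the middle of the distribution, with Acox2 at 1.66 and Angptl4 at -1.06 outside the dashed 2-fold lines and Acadl at 0.96 just inside. The tallest bin holds 907 genes counted at 0 because their bound did not exceed 1.

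**Figure D2:**
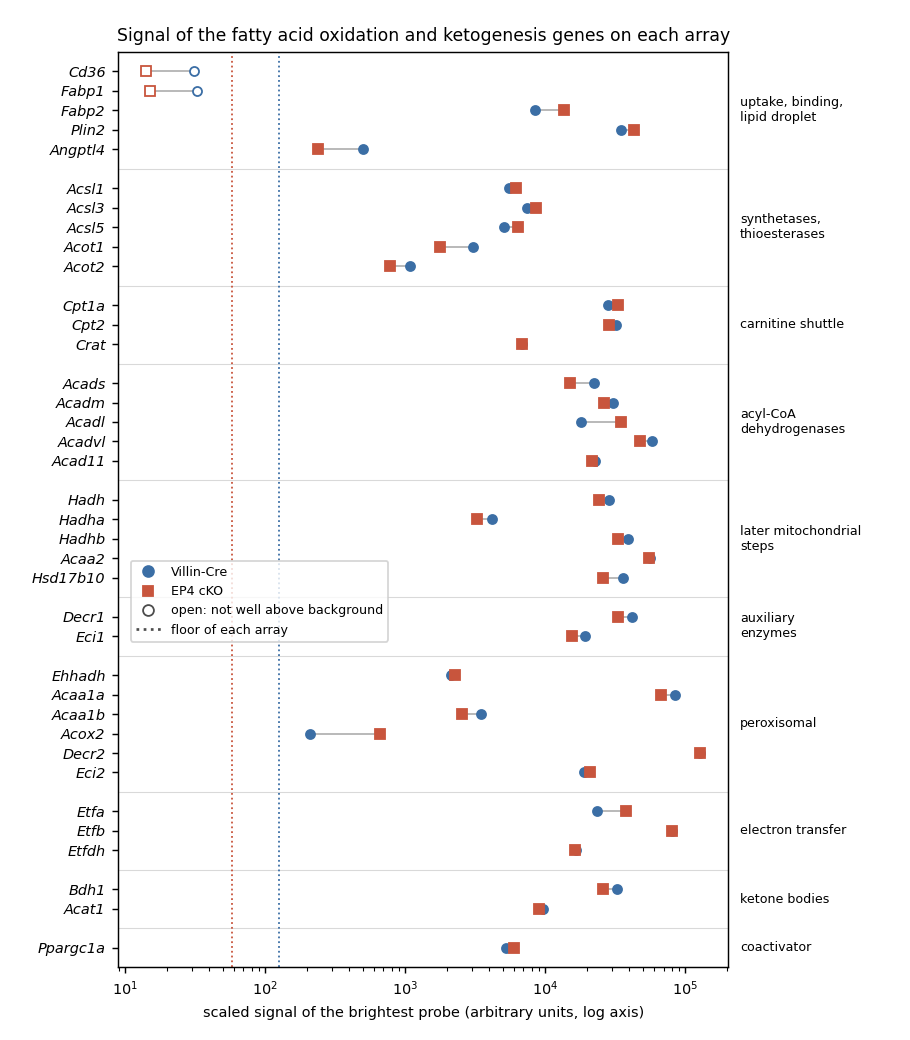
Scaled signal of the brightest probe of each of the 37 genes on the Villin-Cre array (blue circles) and the EP4 cKO array (red squares), on a log axis in arbitrary units and grouped by role, with dotted lines at the floor of each array. Most pairs of points touch or nearly touch, while Angptl4, Acot1, Acadl and Acox2 are visibly apart and Cd36 and Fabp1 lie under both floors with open points.

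Fatty acid uptake and storage gave both an absent pair and a gene past 2-fold. Cd36, a fatty acid receptor of the plasma membrane, had signals of 30.9 in Villin-Cre and 14.1 in EP4 cKO, and Fabp1, the liver-type binding protein, had 32.4 and 15.0. On neither array did they stand well above background, and no ratio is given for them. Fabp2, the intestinal binding protein, was 8402 in Villin-Cre and 13572 in EP4 cKO, a log2 ratio of 0.69 ± 0.20 (scanner error, as for all errors here). That was a 1.62-fold difference, and 91.8% of all genes had a lower ratio. Plin2, a coat protein of lipid droplets, was 34745 and 43089 (log2 ratio 0.31), and a second probe gave 0.08. Angptl4, a secreted inhibitor of lipoprotein lipase and a known target of PPAR factors, fell from 499.7 to 239, a log2 ratio of -1.06 ± 0.23 and a 2.09-fold difference. It had a single probe. The ratio of Angptl4 lay within 2-fold under 4 other ways of processing, at its smallest -0.55 after normexp with quantile normalization. The gene start regions of the genes past 1.5-fold are printed with each gene, to let their sequences be compared. They span 300 bases around the start of the transcript, most of them upstream, as RefSeq gives it on GRCm38.p6, and are written 5′ to 3′ on the strand of the gene. Capitals mark, on either strand, AGGTCA (the half-site of nuclear receptors such as the PPAR factors), TGACG (the half-site of the cyclic AMP response element), CCAAT (the CCAAT box of many promoters), GGGCGG (the GC box bound by Sp factors) and TATAAA (the TATA box). Fabp2 (chr3:122894822-122895121, plus strand) has 1 CCAAT, written here as its reverse complement:
Fabp2: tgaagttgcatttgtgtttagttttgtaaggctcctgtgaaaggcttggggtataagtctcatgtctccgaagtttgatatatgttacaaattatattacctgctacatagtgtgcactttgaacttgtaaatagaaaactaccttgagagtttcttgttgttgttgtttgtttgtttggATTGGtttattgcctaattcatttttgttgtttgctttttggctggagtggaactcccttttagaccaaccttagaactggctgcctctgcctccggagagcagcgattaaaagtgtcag

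Among the enzymes that make or split acyl-CoA, the 3 listed synthetases had ratios above 0 and the 2 listed thioesterases below. The long-chain synthetases Acsl1 (5498 in Villin-Cre and 6223 in EP4 cKO), Acsl3 (7439 and 8561) and Acsl5 (5044 and 6409) had log2 ratios of 0.18, 0.20 and 0.35, none past 1.5-fold. Second probes of Acsl1 and Acsl3 gave 0.00 and 0.05. The cytosolic thioesterase Acot1 was 3056 in Villin-Cre and 1783 in EP4 cKO, a log2 ratio of -0.78 ± 0.20 (1.71-fold), and of the genes inside 2-fold it was the nearest to the threshold on the lower side. Its mitochondrial paralog Acot2 was 1085 and 781, a log2 ratio of -0.47 ± 0.21. Acot1 and Acot2 are neighbouring genes of very similar sequence, each with 1 probe, so that signal shared between them was not separated. Acot1 (chr12:84009252-84009551, plus strand) has 1 CCAAT and 1 GC box:
Acot1: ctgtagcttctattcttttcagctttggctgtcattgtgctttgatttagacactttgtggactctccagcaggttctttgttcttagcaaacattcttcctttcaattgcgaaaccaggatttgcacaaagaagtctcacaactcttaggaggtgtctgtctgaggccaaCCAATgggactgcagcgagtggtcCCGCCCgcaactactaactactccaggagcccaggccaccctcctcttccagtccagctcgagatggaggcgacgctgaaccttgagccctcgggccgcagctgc

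The 3 listed genes of the carnitine shuttle lay within 1.5-fold. Cpt1a, which forms acylcarnitines at the outer mitochondrial membrane and sets the rate of entry, was 28234 in Villin-Cre and 32934 in EP4 cKO, a log2 ratio of 0.22. Cpt2, which turns acylcarnitines back into acyl-CoA inside, was 31819 and 28477 (-0.16), and its dimmer probe gave -0.47. Crat, which acts on short chains, was 6846 and 6813 (-0.01). The ratios of Cpt1a and Cpt2 differed in sign, but each was near its scanner error of 0.20 in size. Cpt2 was 0.00 at the 75th percentile and -0.03 over all spots.

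In mitochondrial beta-oxidation, the acyl-CoA dehydrogenase for long chains stood apart from the rest. Of 12 enzymes (5 dehydrogenases, 5 of the later steps and 2 auxiliary enzymes), 11 had log2 ratios below 0, from -0.59 to -0.03, the median of the 12 was -0.27, and 10 were within 1.5-fold. Of all genes measured on both arrays, 63.0% were below 0, with a median of -0.15, and the count of 11 became 9 when arrays were scaled to the 75th percentile or over all spots, and 10 with loess, as Acad11, Acaa2 or both moved just above 0. The median of all genes of like mean signal (in 10 classes of equal size) was nearer to 0, at -0.02 or -0.06 for 11 of the 12 enzymes and -0.13 for Hadha. The exception in sign was Acadl, 18067 in Villin-Cre and 35065 in EP4 cKO. Its log2 ratio was 0.96 ± 0.20, a 1.94-fold difference just inside the threshold, and 94.7% of all genes had a lower ratio. Acadl passed 2-fold when arrays were scaled to the 75th percentile (1.11) or over all spots. The other 4 listed genes of the family had ratios below 0. Acads, which oxidizes butyryl-CoA, was 22435 and 14949, a log2 ratio of -0.59 ± 0.20, just past 1.5-fold (-0.43 at its smallest, at the 75th percentile). Acadm, for medium chains, was 30687 and 26099 (-0.23), Acadvl, for very long chains, was 58233 and 47320 (-0.30), and Acad11 was 22859 and 21463 (-0.09, and 0.07 at the 75th percentile). Acadl and Acads were each measured by 1 probe. Acadl (chr1:66863260-66863559, minus strand) has 4 GC boxes and no CCAAT in this window, and Acads (chr5:115119297-115119596, minus strand) has 1 GC box:
Acadl: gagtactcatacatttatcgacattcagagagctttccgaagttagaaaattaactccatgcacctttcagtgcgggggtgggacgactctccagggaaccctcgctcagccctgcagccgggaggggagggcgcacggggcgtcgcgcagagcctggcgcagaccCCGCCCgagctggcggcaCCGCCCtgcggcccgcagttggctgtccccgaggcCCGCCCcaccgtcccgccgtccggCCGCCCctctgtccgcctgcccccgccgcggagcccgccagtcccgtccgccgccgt
Acads: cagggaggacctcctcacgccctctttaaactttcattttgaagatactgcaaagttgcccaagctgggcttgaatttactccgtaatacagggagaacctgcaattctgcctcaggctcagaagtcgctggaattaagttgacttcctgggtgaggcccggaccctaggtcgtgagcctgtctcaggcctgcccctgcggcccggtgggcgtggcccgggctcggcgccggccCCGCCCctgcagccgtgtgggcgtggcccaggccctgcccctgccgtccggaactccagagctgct

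All 5 enzymes of the later steps had log2 ratios below 0 and within 1.5-fold. Hadha and Hadhb, the subunits of the trifunctional protein, were 4159 in Villin-Cre and 3244 in EP4 cKO (-0.36) and 39265 and 33336 (-0.24), so that the ratios of both subunits were alike. Hadh, the hydroxyacyl-CoA dehydrogenase for shorter chains, was 28392 and 24186 (-0.23). The thiolase Acaa2 was 56161 and 54837 (-0.03). Hsd17b10, which oxidizes short and branched chains and is also a subunit of the mitochondrial RNase P, was 36002 and 25840, a log2 ratio of -0.48 ± 0.20. The auxiliary enzymes for unsaturated fatty acids, Decr1 (41960 and 33369) and Eci1 (19374 and 15627), had log2 ratios of -0.33 and -0.31.

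Peroxisomal beta-oxidation held the highest ratio of all 35 genes. Acox2, the oxidase that acts on branched-chain fatty acids and on intermediates of bile acid synthesis, rose from 208 in Villin-Cre to 659 in EP4 cKO, a log2 ratio of 1.66 ± 0.30 and a 3.17-fold difference. 98.0% of all genes had a lower ratio, and it stayed past 2-fold under all 8 other ways of processing (1.28 to 1.93). Of these, the filter on both arrays, no filter and the mean over probes could not change the ratio of Acox2. It had 1 probe with a value, well above background on both arrays. Its signal was dim on both arrays, its scanner error was the largest of the 35, and its other probe stood well above background on neither array (28.4 and 13.0). The other 5 peroxisomal genes lay within 1.5-fold. Ehhadh, the bifunctional enzyme, was 2134 and 2276 (0.09), Decr2 was 127191 and 128130 (0.01) and Eci2 was 18878 and 20959 (0.15). The thiolases Acaa1a, 84987 and 66824, and Acaa1b, 3487 and 2552, had log2 ratios of -0.35 and -0.45. They are close paralogs, and cross-hybridization between them was not tested. Acox2 (chr14:8258970-8259269, minus strand), of which the table holds 2 windows, has 1 TGACG in the window shown, written as its reverse complement:
Acox2: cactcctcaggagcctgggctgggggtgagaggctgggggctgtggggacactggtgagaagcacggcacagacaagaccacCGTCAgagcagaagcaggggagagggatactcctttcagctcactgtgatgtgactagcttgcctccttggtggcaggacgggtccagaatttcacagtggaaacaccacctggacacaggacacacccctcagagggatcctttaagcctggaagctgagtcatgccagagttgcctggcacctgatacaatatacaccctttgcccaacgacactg

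The subunits of the electron transfer flavoprotein, which accepts the electrons of all acyl-CoA dehydrogenases, had unlike ratios. Etfa, the alpha subunit, was 23604 in Villin-Cre and 37674 in EP4 cKO, a log2 ratio of 0.67 ± 0.20 (1.60-fold). Its other probes read 13967 and 22626 (0.70) and 2142 and 3553 (0.73), so that all 3 probes gave nearly the same ratio at different signals. Etfb, the beta subunit, was 80759 and 80601 (0.00), with 0.09 at its second probe, 20704 and 21968. Etfdh, which hands the electrons to ubiquinone, was 16604 and 16450 (-0.01). Etfa (chr9:55512194-55512493, minus strand) has 1 TGACG and 2 CCAAT in its window:
Etfa: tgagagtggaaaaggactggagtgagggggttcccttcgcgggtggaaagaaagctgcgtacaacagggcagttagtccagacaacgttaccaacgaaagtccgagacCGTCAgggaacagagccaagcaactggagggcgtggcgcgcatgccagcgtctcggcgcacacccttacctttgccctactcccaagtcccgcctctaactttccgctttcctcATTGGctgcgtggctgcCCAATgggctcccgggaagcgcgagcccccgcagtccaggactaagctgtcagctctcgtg

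Of the ketone body enzymes among the members, Bdh1 was slightly lower in EP4 cKO and Acat1 lay at the median of all genes. Both were within 1.5-fold. Bdh1, which interconverts acetoacetate and beta-hydroxybutyrate, was 32412 in Villin-Cre and 26016 in EP4 cKO, a log2 ratio of -0.32, and its second probe gave -0.45. Acat1, the mitochondrial acetoacetyl-CoA thiolase, was 9623 and 8975 (-0.10, within its scanner error of 0.20). The sign of Acat1 turned at the 75th percentile (0.06) and over all spots (0.03). Oxct1, the enzyme with which tissues use ketone bodies, is not among the 37 and was named after its value was seen; it had a log2 ratio of 0.07 (-0.01 when centred on the epithelium markers). The coactivator Ppargc1a, which promotes mitochondrial gene expression, was 5237 and 5999 (0.20), while its second probe gave -0.05 (1429 and 1381).

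**Figure D3:**
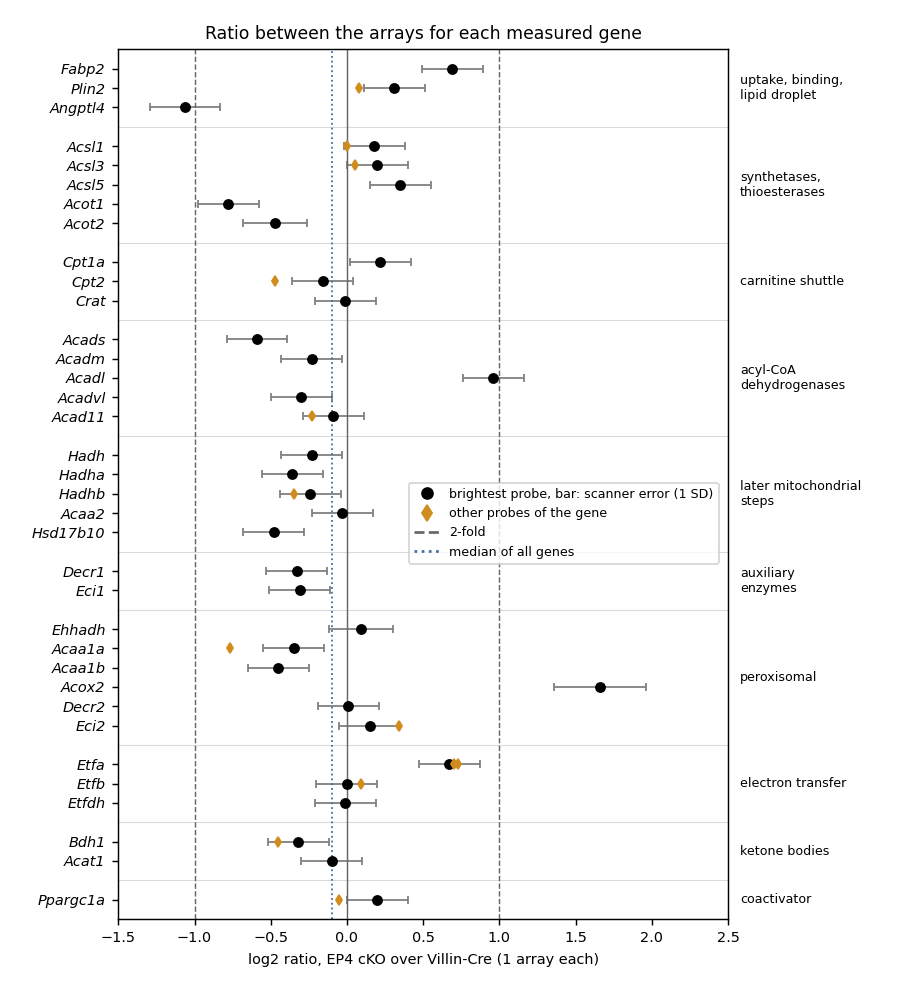
Log2 ratio, EP4 cKO over Villin-Cre, of the brightest probe of each of the 35 measured genes (black points, bars of 1 scanner error) and of their other probes (orange diamonds), with dashed lines at 2-fold and a dotted line at the median of all genes, -0.10. The mitochondrial enzymes form a column slightly left of 0 from which Acadl (0.96) stands out, and the 3 probes of Etfa lie together between 0.67 and 0.73.

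Probes of a gene can be set against each other where a gene had several. Of the 52 probes of the 37 genes, 48 had a value, and 12 genes had more than 1 probe with a value. The gap between their ratios had a median of 0.16 and was largest for Acaa1a, 0.43, whose dimmer probe (6292 and 3682) gave -0.77 against -0.35 for the brighter. In 2 of the 12, Etfb and Ppargc1a, the probes had opposite signs, and both of these genes lay near 0. Of the 7 genes past 1.5-fold, Etfa alone had a further probe with a value.

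No single motif was in all 6 printed gene start regions. Windows were found for 32 of the 37 genes and none for Angptl4, Crat, Acaa2, Decr1 and Acat1. Over the 32, CCAAT was present in 20 (62.5%), beside 42.7% of the 11687 genes with a value and a window, and GGGCGG was present in 22 (68.8%), beside 61.7%. AGGTCA was found in 6 (18.8%, Acadm, Acadvl, Cd36, Cpt1a, Fabp1 and Plin2) beside 15.9%, and of these the 4 with a ratio were all within 1.5-fold. TGACG was found in 8 (25.0%) beside 32.2%, among them Acox2 and Etfa. The full palindrome TGACGTCA, which contains TGACG, and the DR1 tandem, in which AGGTCA stands next to its repeat with a single base between, were in none of the 32, beside 3.34% and 0.0685%, and TATAAA was in Fabp1 only (3.12%) beside 11.0%. Over all 32851 windows, the shares were 37.4% for CCAAT, 35.7% for GGGCGG, 16.3% for AGGTCA, 20.8% for TGACG, 1.79% for TGACGTCA, 0.0396% for DR1 and 13.6% for TATAAA. A match describes letters in these 300 bases on either strand, and the absence of one says only that the letters are not in this window.

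Further genes of the same pathway, outside the 37, spread over a like range, from -1.39 to 1.64. Of 47 further genes of fatty acid oxidation and ketone bodies, 41 had a value. Their median was 0.04, 4 were more than 2-fold higher, 3 lower and 32 within 1.5-fold. Slc25a20, the carrier that brings acylcarnitines across the inner membrane between Cpt1a and Cpt2, rose from 4091 to 11918 (log2 ratio 1.54, 2.91-fold). The thioesterases Acot9 (1259 and 3929, 3.12-fold) and Acot4 (280.4 and 668, 2.38-fold) were higher. Acot4, a close relative of Acot1 and Acot2, was within 2-fold in the mean over its probes, at 0.85. Acot3 of the same cluster, named after its value was seen, was 174 and 115 (-0.60, and 0.01 with loess). Amacr, a racemase that prepares branched-chain acyl-CoA for the oxidase Acox2, fell from 4024 to 1533 (-1.39). Bdh2, at least 2.89-fold higher, and Acad12 (-1.17) were named after their values were seen. Acad12 was inside 2-fold with loess (-0.69) or normexp (-0.38).

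Carriers of butyrate and the citrate cycle lie before and after beta-oxidation, and most genes of both lists lay within 1.5-fold. The carrier list also holds the receptors Ffar2 and Ffar3 and the partner protein Bsg. Of its 8 genes with a value, 6 lay within 1.5-fold, and those past it were the carriers Slc16a3 and Slc5a8. Slc16a3 alone was past 2-fold. This monocarboxylate carrier, better known for the export of lactate, rose from 1833 to 5778 (1.66). The sodium-coupled carrier Slc5a8 was 17004 and 11217 (-0.60), and Slc16a1, the main proton-coupled carrier, named after its value was seen, was 34884 and 31937 (-0.13, and 0.03 at the 75th percentile). Ffar3, a receptor of short-chain fatty acids, had a ratio of -0.29 (0.04 with normexp), and Bsg, the partner protein of monocarboxylate carriers, 0.20. None of 24 citrate cycle genes passed 2-fold, and 23 were within 1.5-fold, around a median of -0.02. The exception was Pcx, which makes oxaloacetate from pyruvate (22211 and 39257, 0.82). The next were Cs (0.44), Idh3b (-0.39) and Suclg2 (0.38), whose sign turned in the mean over its probes (-0.41).

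Regulators and targets of the PPAR factors, which control many genes of fatty acid oxidation, had a median of 0.01 over 26 genes with a value. 4 were more than 2-fold higher and 2 lower. Creb3l3, a membrane-bound transcription factor of lipid metabolism, rose from 274 to 16208, a log2 ratio of 5.88 and a 59.1-fold difference (5.23 with normexp). Fabp6, the bile acid binding protein of the ileum, was 3.32-fold higher (7779 and 25853) and Cyp4f14, a fatty acid hydroxylase, 3.01-fold higher (7731 and 23246). Ppargc1b, the relative of Ppargc1a, was 12262 and 7354 (-0.74). The following were named after their values were seen. Cidec, a lipid droplet protein, was at least 36.6-fold higher, a log2 ratio of 5.20 that was 4.07 with normexp. Lpl, the lipase that Angptl4 inhibits, was at least 7.55-fold lower, a log2 ratio of -2.92 that was -2.30 with loess and -1.47 with normexp. Ppara (-0.73), Ppard (-0.30) and Pparg (0.50) lay within 2-fold.

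**Figure D4:**
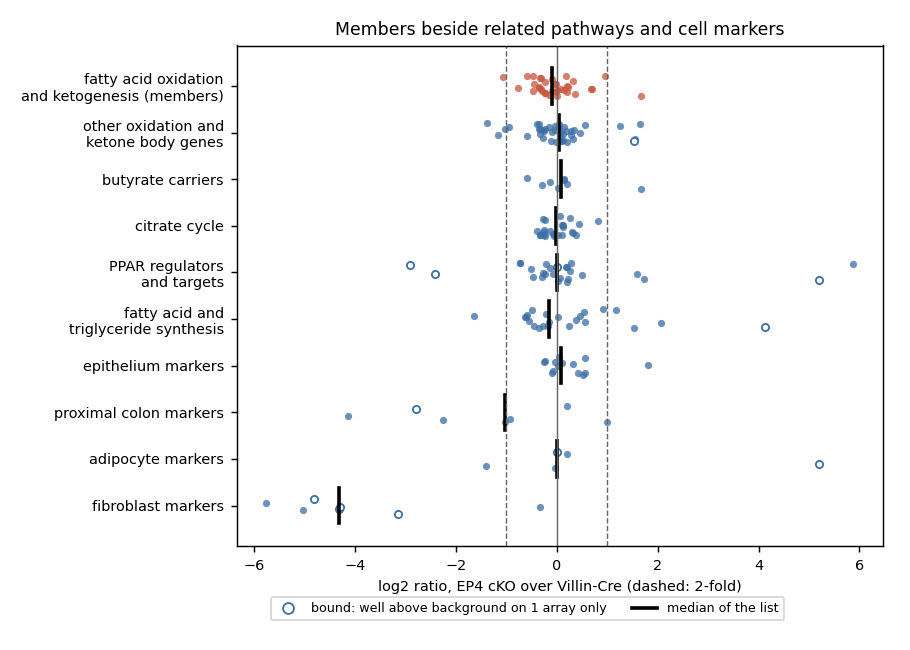
Log2 ratio, EP4 cKO over Villin-Cre, of every gene with a value among the 35 members (red), 5 related pathway lists and 4 of the marker lists (blue, open points are bounds), with the median of each list as a black bar and dashed lines at 2-fold. The members and the citrate cycle are narrow around 0, while the fibroblast markers lie far to the left with a median of -4.32 and the proximal colon markers have a median of -1.03.

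The labels and the makeup of the tissue bear on these values. Ptger4 was 6227 in Villin-Cre and 5661 in EP4 cKO at its brighter probe (-0.14) and 393 and 592 at the other (0.59), and the sign of the brighter one turned when arrays were scaled to the 75th percentile (0.02). It was thus not clearly lower in EP4 cKO, the position of these probes relative to the floxed part is not known here, and the direction of every ratio rests on the labels of the arrays. All 14 epithelium markers were measured, with a median of 0.08 and a summed signal of 2974018 and 3523104. Such sums are set by the brightest probes, and most of this difference was Krt20, a keratin of surface cells (146575 and 510711, 3.48-fold higher). Among 14 measured surface colonocyte markers, 4 were more than 2-fold higher and 2 lower, the extremes being Emp1 (4.50) and Cyp2c55 (-4.15). Of 7 measured proximal colon markers 4 were more than 2-fold lower and 1 higher, and their summed signal was 106292 in Villin-Cre and 26721 in EP4 cKO, most of it from Cyp2c55 (42911 and 2412) and Hao2 (39259 and 8186) in Villin-Cre. Of 8 measured distal colon markers 2 were more than 2-fold higher, Scnn1g (2.88) and Aqp4 (1.08, and 0.97 in the mean over its probes). Of 7 measured fibroblast markers 6 were more than 2-fold lower, Dcn from 6006 to 110.2 (-5.77, and -4.17 with normexp), and their summed signal was 14672 and 543. Of 15 small intestine enterocyte markers 9 had a value, with a median of 0.36. Fabp6 (1.73) and Treh, at least 3.52-fold (a log2 ratio of 1.82, and 1.01 with normexp) and named after its value was seen, were more than 2-fold higher, and Mttp (-1.60) and Anpep (-1.05) lower, both within 2-fold with normexp (-0.94 and -0.76). Lct, Sis, Apoa1, Apoa4, Slc2a2 and Gata4 stood well above background on neither array. The tissue labelled colon held signs of muscle and vessels in part. Of 10 smooth muscle markers 7 had a value, with a summed signal of 35620 and 52085. Most of it came from Acta2 (18006 and 27719) and Actg2 (7308 and 12072). The log2 ratio of Acta2, 0.62, was 0.02 in the mean over its probes. Cnn1 was lower (-2.73, but -2.27 with loess and -1.04 with normexp). Myh11, Lmod1 and Synpo2 stood well above background on neither array. Of 10 endothelium markers Pecam1, Vwf and Egfl7 had a value, within 1.5-fold, and the other 7, Cdh5, Kdr and Flt1 among them, had none. Of 12 adipocyte markers 7 had none, Adipoq, Plin1 and Fabp4 among them, and of the 5 with a value Lep (-0.04) and Pnpla2 (0.20) lay within 1.5-fold, Pck1 was lower (22523 and 8517, -1.40) and Cidec higher. Of 12 measured leukocyte markers 3 were more than 2-fold higher, Itgax (1.73), Coro1a (1.53) and Cd3g (1.28, and 0.87 with normexp). None was more than 2-fold lower. Itgax was dim in Villin-Cre (152, beside a floor of 125). Of the 12, 6 had ratios above 0 and 4 below, among the latter Csf1r (-0.79) and Laptm5 (-0.58). The summed signal of the list was 66583 and 86976, most of it from Itgam (49347 and 68597). Cd79a, Ms4a1 and Lyz2 stood well above background on neither array. What part these differences had in the ratios of the 37 genes was not tested.

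**Figure D5:**
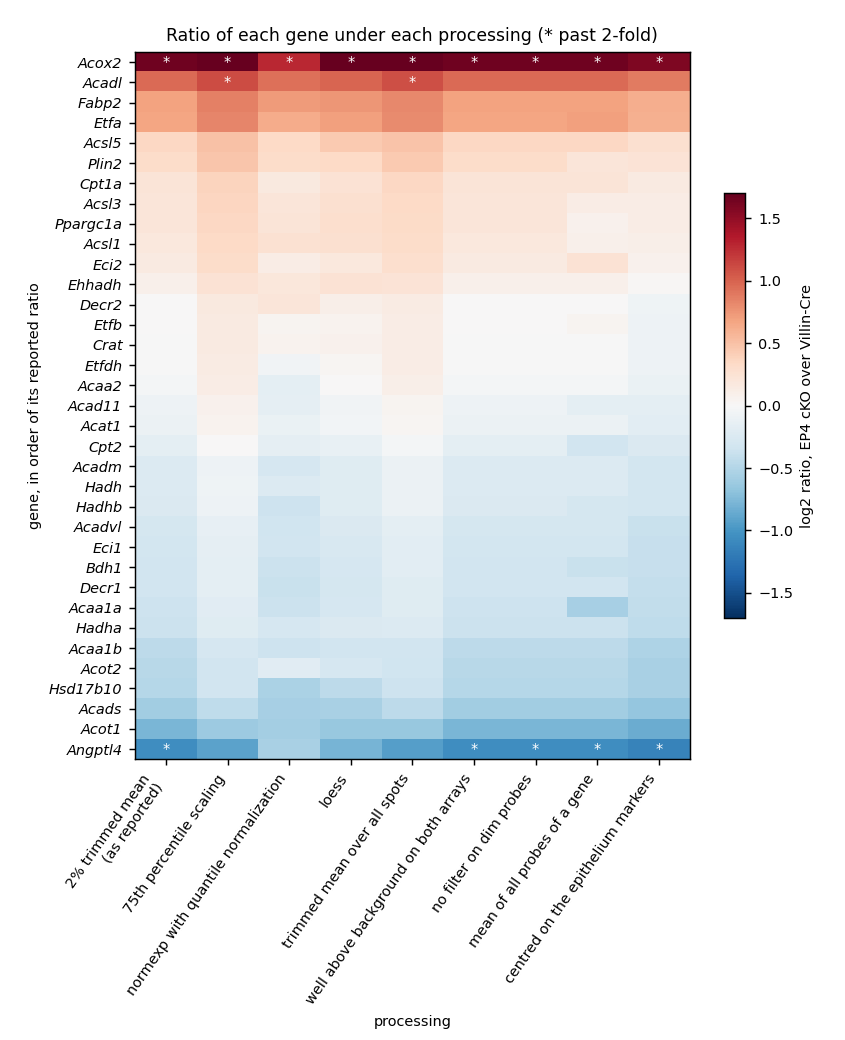
Heat map of the log2 ratio, EP4 cKO over Villin-Cre, of the 35 measured genes (rows) under the processing used here and 8 alternatives (columns), from blue (lower in EP4 cKO) to red (higher), with an asterisk past 2-fold. Acox2 is past 2-fold in every column, Acadl in 2 and Angptl4 in 5, while genes near 0 change colour from column to column. The columns for a filter on both arrays and for no filter equal the processing used here for all 35.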

How the data were processed

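Colon RNA of each genotype, Villin-Cre or EP4 cKO, was read on 1 SurePrint Mouse GE array, and the labels gave the genotype of each array. The authors deposited the scanner output, in which the intensity of each spot is the processed signal, with background subtracted and spatial trends removed but no normalization between arrays. The deposited headers name Feature Extraction 12.0.3.1, and the submitters' processing notes name 11.5.1.1. Flags for control spots, outlier spots and signal well above background (unit: other) were used as the authors deposited them. No spot was saturated.

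Control spots and outlier spots (147 in Villin-Cre and 126 in EP4 cKO) were removed, spots of a probe were averaged, and the 56593 probes left were scaled to a mean of 2500 trimmed by 2% at each end, as in the methods (factors 3.45 and 2.68). Well above background were 45.4% of them in Villin-Cre and 51.6% in EP4 cKO, and over 163 probes with 10 spots the median SD of the log2 ratio was 0.034, which covers spots and not mice. 32989 probes (58.3%) were named by matching their accession to RefSeq genes of GRCm38.p6. A gene is its probe with the highest mean signal. A probe well above background on 1 array only took on the other its own signal or, if higher, the floor of that array (125 in Villin-Cre, 57.8 in EP4 cKO), and its fold is given as "at least". Bounds of 1 or less were set to a log2 ratio of 0. More than 2-fold was the threshold, as in the methods. Precision is limited by the number of arrays.

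The members and lists were chosen with earlier results of these data known. All members are accounted for, with those past 2-fold or with probes of opposite sign in full. In each other list, the 4 genes with the largest ratio measured on both arrays were to be named, and other genes are named as chosen after their values were seen; of the marker lists only examples are given. The values of some single genes of these lists are left out of the text. Alternatives were scaling to the 75th percentile, normexp (offset 50, on the median signal, since the mean signal was not used here) with quantile normalization, loess (span 0.3), all spots in the trimmed mean, a filter on both arrays, no filter, the mean ratio of a gene's probes and thresholds of 1.5-fold and 3-fold. Centring on the epithelium markers was chosen after seeing the data. Each step was tested on simulated data. The software was limma 3.58.1 in R 4.3.3, and Python 3.11.15 with pandas 2.3.3, numpy 2.4.6, matplotlib 3.10.9 and statsmodels 0.14.6.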

Additional observations from a re-analysis of the deposited data

How the results depend on the processing

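Of the 35 genes, 28 kept the sign of their ratio under the processing reported and the 8 alternatives to it (12 higher and 16 lower). The 7 that turned were Crat, Acad11, Acaa2, Decr2, Etfb, Etfdh and Acat1. The filter on both arrays and no filter could not change the ratio of any of the 35, which all stood well above background on both arrays. The mean over probes could change only the 12 genes with more than 1 probe with a value. The number of members more than 2-fold higher was 2, with Acadl added, under scaling to the 75th percentile and under a trimmed mean over all spots, and 4 at a threshold of 1.5-fold. The number more than 2-fold lower was 0 under scaling to the 75th percentile, normexp with quantile normalization, loess, a trimmed mean over all spots and a threshold of 3-fold. It was 3 at 1.5-fold and 3 with no filter on dim probes, where Cd36 and Fabp1 were counted by signals not well above background. The median of the members was 0.07 at the 75th percentile, -0.15 with normexp, -0.04 with loess, 0.04 over all spots and -0.17 when centred on the epithelium markers. The cause was not tested. Relative to the median of all genes under the same alternative, which moved from -0.10 to 0.00 at the 75th percentile, with normexp and over all spots and to 0.03 with loess, the members' median was 0.07, -0.15, 0.04 and -0.07. Of all genes, 6.39% were higher and 6.18% lower at the 75th percentile, 6.14% and 6.43% over all spots, 4.11% and 2.67% with normexp, 7.73% and 4.90% with loess and 5.10% and 31.5% with no filter, beside 4.86% and 7.87% as reported. No alternative turned the sign of a gene past 2-fold. No paired analysis was possible because there was 1 array per genotype, and for the same reason no replicate could be left out. Signal over background limits Cd36 and Fabp1, for which no ratio could be given, and Acox2 and Angptl4, which were dim on both arrays.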

Other observations

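Genes of fatty acid and triglyceride synthesis, the opposite direction of the pathway, included larger differences than the oxidation genes above. All 23 had a value, with a median log2 ratio of -0.16. 4 were more than 2-fold higher and 1 lower, and 14 (60.9%) lay within 1.5-fold, beside 80.0% of the oxidation and ketogenesis genes and 71.6% of all genes. Dgat2, which joins the last fatty acid to triglycerides, rose from 9510 to 39958 (log2 ratio 2.07, 4.20-fold). Mogat2, which makes diglycerides in the intestine, rose from 329 to 944 (1.52). The phosphatidate phosphatases moved in opposite directions, Lpin1 from 543 to 174 (-1.64) and Lpin2 from 1113 to 2500 (1.17). As the mean over all their probes, both lay within 2-fold, at -0.74 and 0.87, and Lpin1 did so after normexp with quantile normalization too (-0.74). Me1, the malic enzyme that supplies NADPH, named after its value was seen, was at least 17.5-fold higher in EP4 cKO, a log2 ratio of 4.13 that was 3.09 in the mean over its probes and 3.06 with normexp.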
